A study of Mus musculus with 6 samples.

Results

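The transcriptome described here is that of tongue tumours formed by control 4MOSC1 cells, a murine oral squamous cell carcinoma line, in mice of the C57BL/6 strain. The cells had been injected orthotopically, that is, into the organ the carcinoma comes from. The members are the 3 libraries of the control group (genotype control, injected with 4MOSC1-con cells), out of 6 libraries in the series. The other 3 came from tumours of 4MOSC1-LIGHT cells, which overexpress the ligand LIGHT, and are not compared here. The labels give no age, sex or day of collection for these mice and do not say which animal a library came from. The spread between the 3 libraries may therefore be biological or technical. The whole group rests on 1 cell line, grown in hosts of an inbred strain with an intact immune system. RNA was taken from bulk tumour tissue and depleted of ribosomal RNA, and 1 level per gene was deposited in TPM, a share of all transcripts corrected for transcript length, so that levels of different genes can be compared. Values for 3 libraries are given throughout in the order of control replicates 1, 2 and 3, and errors are SD with n = 3.

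Squamous epithelium, the tissue such tumours come from, is a layered sheet. Its basal cells divide on a basement membrane, to which hemidesmosomes fix them, and make the keratins Krt5 and Krt14. As cells leave that layer they switch to other keratins, and near the surface they build a cornified envelope from precursors such as the small proline-rich proteins, loricrin and the late cornified envelope proteins, which transglutaminases join together. Keratins work as pairs of 1 type I and 1 type II protein, and the pair made marks the kind of epithelium: Krt4 with Krt13 in mouth and oesophagus, Krt1 with Krt10 in skin, and Krt6 with Krt16 or Krt17 in wounded, fast-growing or cancerous epithelium. The upper face of the mouse tongue also carries filiform papillae, hard cones that make hair-type keratins and keratin-associated proteins. A tumour in the tongue lies in skeletal muscle, and it draws in fibroblasts, vessels and leukocytes.

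The files list 18437 genes. Of these, 12418 (67.4%) reached 1 TPM in all 3 libraries, and 12798, 12838 and 12713 did so in the single libraries. A further 816 genes were listed at 0 in all 3. The unit keeps no record of how many reads stood behind a value, so that depth is unknown and no counting error can be given. The libraries were alike: across the 12821 genes with a mean of at least 1 TPM, Pearson's r of log2(TPM + 1) was 0.9862 between replicates 1 and 2, 0.9836 between 1 and 3, and 0.9918 between 2 and 3, as a description across genes, which are not independent. Replicate 1 stood slightly apart from the other pair. The highest value fell in replicate 1 for 53.1% of those genes, in replicate 2 for 28.8% and in replicate 3 for 18.1%. The lowest fell there for 21.8%, 27.5% and 50.7%. These shares are the background for the counts of highest and lowest genes below. After trimmed-mean scaling of the TPM, with factors of 1.04, 1.00 and 0.958, replicate 1 was highest for 37.3%. Markers of the labelled cell type were present, with 5395, 5081 and 4151 TPM of Krt5 and 76.7, 63.7 and 61.2 TPM of Trp63, the transcription factor of basal keratinocytes. Tnfsf14, which encodes LIGHT, was at 0.66, 0.53 and 0.79 TPM in these control tumours, below 1 TPM in each. Among genes with a mean of at least 1 TPM, 337 (2.63%) had a range of at least 1 between the highest and lowest library on the log2(TPM + 1) scale, that is, about 2 times, and these are called variable below. On that scale the ranges of low genes are understated.

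The most abundant messages were those of ribosomal proteins, keratins and the uppermost squamous layer. Of the 30 genes with the highest mean, 15 encoded ribosomal proteins, 5 were keratins and 2 lay in the epidermal differentiation complex, the gene cluster of cornified envelope proteins. Rps26 led with 11859.7, 12986 and 13737 TPM. Krtdap, a secreted peptide of differentiating keratinocytes, followed with 11013, 12763 and 13359.5 TPM (mean 12379 ± 1219). Sprr1a, an envelope precursor, was at 11481, 9808 and 15616 TPM (mean 12302 ± 2989.9). These 3 means differed by less than the SD of Sprr1a, so that their order is not settled by 3 libraries. Krt13 was at 10110.3, 10643 and 15543 TPM, and Krt14, its counterpart of the basal layer, at 12469, 10648 and 11146 TPM. Gsto1, a glutathione transferase of the omega class, was at 9656, 12015 and 14019.9 TPM. It was lowest in replicate 1 and highest in replicate 3, as were Krtdap and Krt13, whereas Krt14 was highest in replicate 1. B2m, the light chain of major histocompatibility complex (MHC) class I, was at 10211, 10572 and 11196 TPM, and S100a11, a calcium-binding protein abundant in keratinocytes, at 9447, 9993 and 11110.1 TPM. None of the 30 was variable, near the 2.63% over all genes. The highest value fell in replicate 1 for 7 of them, in replicate 2 for 11 and in replicate 3 for 12.

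**Figure D1:**
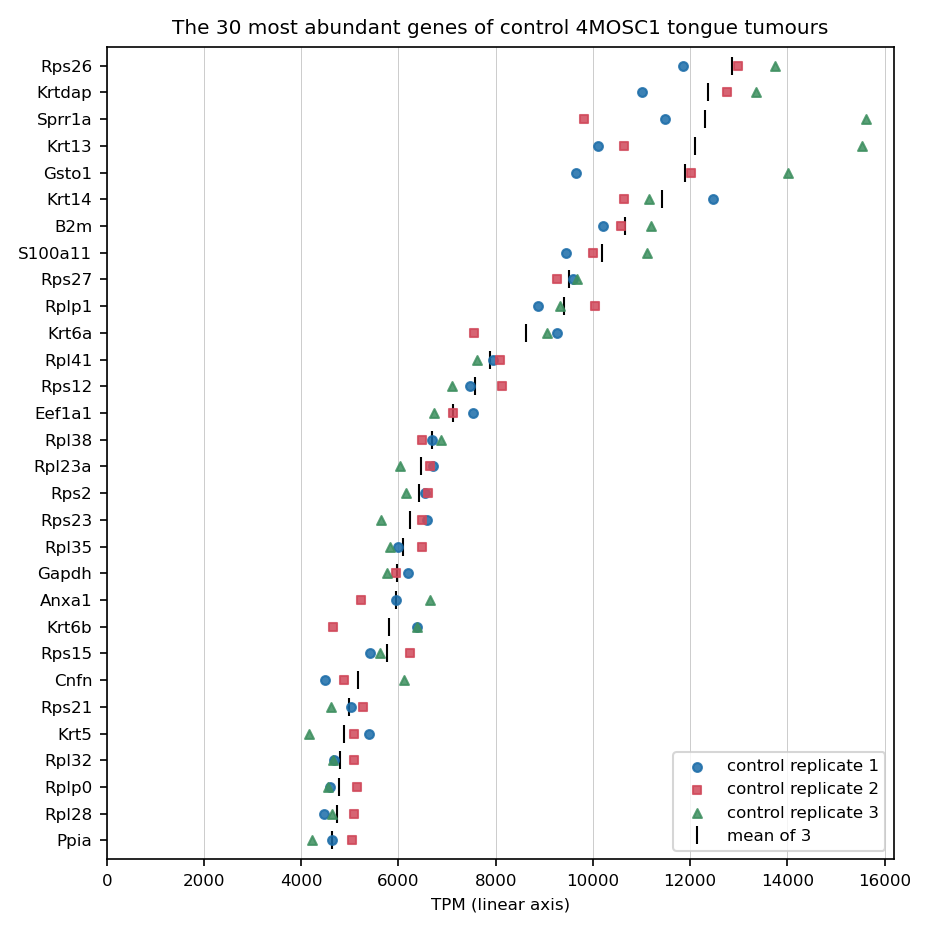
Level of the 30 genes with the highest mean, in TPM on a linear axis, 1 symbol per control library and a vertical tick for the mean. Sprr1a and Krt13 reach 15616 and 15543 TPM in replicate 3 and are lower in the other libraries, while the ribosomal protein genes lie close together.

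Messages were strongly concentrated on a few genes. The 10 most abundant genes held 10.5%, 10.9% and 12.5% of all TPM, the first 100 held 43.1 ± 0.93%, and 147 genes held 50%. At the other end, 5616 genes with a mean under 1 TPM together held 0.116%. Genes of at least 1000 TPM numbered 162, held 51.7% of TPM, and none of them was variable. Among the 5142 genes between 1 and 10 TPM 3.50% were variable.

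Keratins made up 5.35% of all TPM. Of 51 listed keratin genes, 32 reached 1 TPM in all 3 libraries, and the summed level was 54254, 47563 and 58799 TPM. In GRCm38.p6, 25 of the genes lie on chromosome 11 between 99232761 and 100269951, and 26 on chromosome 15 between 101348315 and 102032026, the 2 keratin clusters. Type II keratins were less abundant than type I keratins in every library, with ratios of summed TPM of 0.836, 0.781 and 0.783. The plot of keratin levels shows 8 genes far above the rest, which are the basal, stress and mouth keratins, and a gap below Krt17.

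The basal keratins were high in all 3 libraries and close to one another. Krt14 had a mean of 11421 ± 941 TPM. Krt5, its type II partner, was at 5395, 5081 and 4151 TPM, a ratio to Krt14 of 0.433, 0.477 and 0.372. Krt15, a basal keratin of resting epithelium, was far lower, at 152, 186 and 262 TPM. Their sum was 18016, 15915 and 15558 TPM, with the highest value in replicate 1. In bulk tissue, fewer cells of a type and less RNA per cell cannot be told apart, which holds for every group below. The keratins of stressed and hyperproliferative epithelium were as abundant. Krt6a was at 9266, 7558 and 9051 TPM, Krt6b at 6372, 4648 and 6379 TPM, Krt16 at 4077, 2639 and 3738 TPM and Krt17 at 2341, 1994 and 1378 TPM. All 4 were lower in replicate 2 than in replicate 1, and Krt17 was lowest in replicate 3. Their sum was 22056, 16839 and 20546 TPM, so it was highest in replicate 1 as deposited and in replicate 3 after trimmed-mean scaling. Krt6a and Krt6b are near-identical, and how the authors' quantification divided reads between them is uncertain.

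The mouth pair stood far above the skin pair. Krt13 had a mean of 12099 ± 2995 TPM, and its partner Krt4 was at 3134, 2746 and 4968 TPM. Krt76, a keratin of the hard palate and gingiva, was at 94.1, 192 and 353 TPM, and Krt78 at 66.4, 73.98 and 116 TPM. All 5 members of the mouth list were highest in replicate 3, and the sums were 13426, 13689 and 21029 TPM. By contrast Krt10 was at 8.64, 34.5 and 34.5 TPM and Krt1 at 0.52, 1.00 and 1.03 TPM. The skin list of 6 genes was carried by Krt80, a keratin found in most squamous epithelia, at 216, 234 and 297 TPM. The simple-epithelial keratins were low as well, with Krt18 at 104, 49.7 and 64.4 TPM, Krt8 at 29.4, 14.5 and 17.8 TPM and Krt19 at 0.71, 0.77 and 0.7 TPM. Krt8 and Krt18, partners in glands and in many carcinomas, were both highest in replicate 1. The other 2 of the 4 listed members with a mean of at least 1 TPM were highest in replicate 3.

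**Figure D2:**
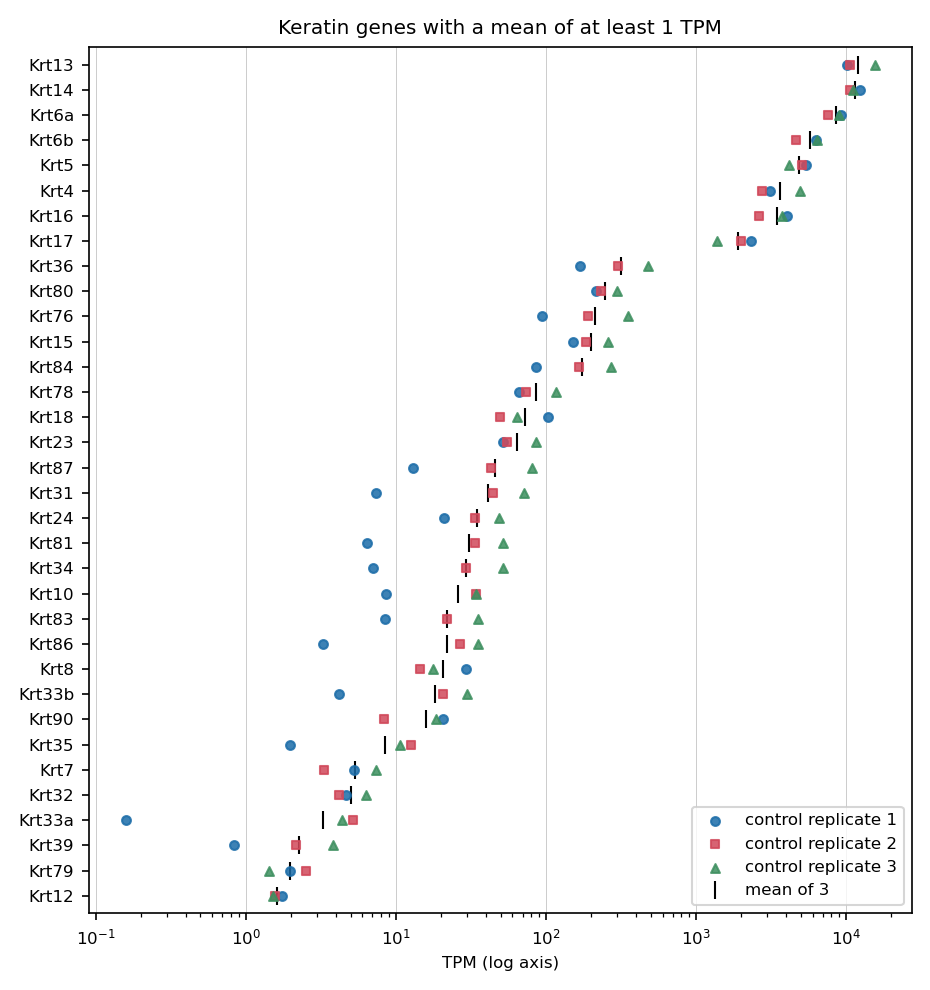
Level of the 34 keratin genes with a mean of at least 1 TPM, in TPM on a log axis, 1 symbol per control library and a vertical tick for the mean. The abundant keratins lie close together, and for the hair-type keratins such as Krt31, Krt81 and Krt86 replicate 1 lies far to the left of replicates 2 and 3.

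Hair-type keratins and their partner proteins were among the least uniform genes of the tumours. Of 17 listed papilla and hair keratins, 9 had a mean of at least 1 TPM, and all 9 were variable, against 2.63% of all such genes. All 9 were lowest in replicate 1. Krt36, a papilla keratin, was the most abundant, at 169, 301 and 479 TPM, and its type II partner Krt84 followed the same order at 85.6, 167 and 273 TPM. Krt31, a cortex keratin of hair, was at 7.4, 44.4 and 71.9 TPM, a range of 3.12 on the log2 scale. Krt86 was at 3.27, 27.01 and 35.4 TPM, and Krt81 at 6.46, 33.99 and 51.7 TPM. The list summed to 291, 644 and 1014 TPM, so replicate 3 held 3.49 times the level of replicate 1. Between replicates 2 and 3 alone, none of the 9 differed by as much as 1.

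Keratin-associated proteins, small proteins rich in cysteine or in glycine and tyrosine that bind hair keratins into a hard matrix, behaved likewise. Of 34 listed genes, 21 had a mean of at least 1 TPM and 20 of these were variable, against 2.63% of all such genes. All 20 were highest in replicate 3 and lowest in replicate 1. Krtap3-1 was the most abundant, at 104, 272 and 539 TPM, followed by Krtap3-3 at 105, 258 and 458 TPM. Krtap4-7 had the largest range among all genes with a mean of at least 10 TPM: 1.07, 25.9 and 33.6 TPM, or 4.07 on the log2 scale. Only Krtap27-1, at 1.51, 1.07 and 3.05 TPM, fell short of the threshold among the 21. Of the 20 variable genes, 17 lie on chromosome 11 between 99550132 and 99986593, inside the type I keratin cluster, and 3 on chromosome 16 between 88646824 and 89571183. Without replicate 1, 1 of the 21 was variable. The members share sequence, so the division of reads among them is uncertain, but the family sum, 365, 1030.5 and 1884 TPM, had the same order. This list, like those of the late cornified envelope, Ly6 and prolactin-like genes, was chosen after its values had been seen. The libraries also differed in host tissue: summed contractile muscle genes were at 6471, 3831 and 4181 TPM, with the highest level in replicate 1. The part of host tongue tissue in the papilla pattern was not tested.

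The promoters of these genes were compared with those of the abundant squamous genes. Krtdap and Sprr1a, of the abundant group, were not variable, with ranges of 0.28 and 0.67, against 3.12 for Krt31 and 2.36 for Krtap3-1. RefSeq sequences for GRCm38.p6 were used, from 250 bases before to 50 bases after each start, on the strand of the gene. They were searched for TATAAA, the core of the TATA box, on the gene's strand and between 50 and 20 bases before the start, and for TGANTCA, the AP-1 site, anywhere in the window. TGANTCA reads the same on both strands. In the promoters below, capitals mark these matches. Krtdap lies on the plus strand (chr7:30787655-30787954), and the other 3 on the minus strand: Sprr1a (chr3:92485832-92486131), Krt31 (chr11:100050502-100050801) and Krtap3-1 (chr11:99566581-99566880).
Krtdap: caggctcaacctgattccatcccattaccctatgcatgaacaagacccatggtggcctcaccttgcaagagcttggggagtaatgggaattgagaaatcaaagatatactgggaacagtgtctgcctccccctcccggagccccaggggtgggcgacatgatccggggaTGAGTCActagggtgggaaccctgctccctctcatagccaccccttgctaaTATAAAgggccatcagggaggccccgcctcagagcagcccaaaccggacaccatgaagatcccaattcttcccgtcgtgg
Sprr1a: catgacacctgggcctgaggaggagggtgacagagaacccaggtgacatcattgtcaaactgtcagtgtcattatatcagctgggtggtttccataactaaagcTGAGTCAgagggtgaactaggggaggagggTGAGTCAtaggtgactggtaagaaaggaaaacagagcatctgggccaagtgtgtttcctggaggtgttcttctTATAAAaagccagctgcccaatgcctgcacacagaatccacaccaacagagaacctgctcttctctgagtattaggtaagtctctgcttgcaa
Krt31: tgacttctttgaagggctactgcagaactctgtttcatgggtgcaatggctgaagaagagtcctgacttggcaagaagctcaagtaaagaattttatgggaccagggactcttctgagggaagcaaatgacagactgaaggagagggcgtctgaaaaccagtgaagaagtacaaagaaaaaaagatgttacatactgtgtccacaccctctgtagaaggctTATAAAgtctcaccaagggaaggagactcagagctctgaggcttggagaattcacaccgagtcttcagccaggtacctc
Krtap3-1: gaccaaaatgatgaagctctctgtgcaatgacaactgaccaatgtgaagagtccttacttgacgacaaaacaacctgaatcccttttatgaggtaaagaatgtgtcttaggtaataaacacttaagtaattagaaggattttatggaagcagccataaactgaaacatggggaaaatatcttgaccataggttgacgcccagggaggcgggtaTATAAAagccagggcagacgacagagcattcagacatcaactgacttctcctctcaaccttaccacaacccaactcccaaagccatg
TATAAA stood 30 bases before the start in Krtdap, 43 in Sprr1a, 29 in Krt31 and 37 in Krtap3-1. TGANTCA occurred once in Krtdap, 81 bases before the start, and 2 times in Sprr1a, at 146 and 116 bases, and was not in the windows of Krt31 or Krtap3-1. Over all 27025 promoters in the table, 2.78% held TATAAA in its window. The share was 26.4% among the 258 variable genes with a promoter, 69.0% (20 of 29) among keratin-associated protein genes and 76.9% (10 of 13) among small proline-rich genes. Among papilla and hair keratins it was 50% (6 of 12), and among cornified envelope precursors 28.6% (6 of 21). Among ribosomal protein genes it was 1.59% (1 of 63), and among late cornified envelope genes 10% (2 of 20). Over genes with a mean of at least 1 TPM it was 2.46%. TGANTCA was in 8.97% of all promoters and 6.90% of those of genes with a mean of at least 1 TPM. It was in 69.2% (9 of 13) of small proline-rich promoters, 42.9% (9 of 21) of cornified envelope precursors and 20.7% (6 of 29) of keratin-associated proteins. It was also in 15.5% of variable genes, but in none of 12 hair keratin and none of 20 late cornified envelope promoters. A match describes the sequence and is no measurement of binding.

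The cornified programme was abundant in all 3 libraries and highest in replicate 3. The epidermal differentiation complex, read here as chr3:90511034-93564645, held 66 listed genes and 4.98% of all TPM. Of its 59 genes with a mean of at least 1 TPM, 22 were variable, against 2.63% of all such genes. The 25 listed envelope precursors summed to 23602, 25701 and 30517 TPM, and 20 of the 23 with a mean of at least 1 TPM were highest in replicate 3, where 18.1% of all genes had their highest value. After Krtdap, the leading member was Cnfn, cornifelin, at 4496, 4882 and 6114 TPM. Crct1, a gene of the same complex, was at 1597, 1969.5 and 2538 TPM, and loricrin (Lor) at 406, 523 and 758 TPM. These 3 had the same order across the libraries. Involucrin (Ivl), an early envelope protein of skin, was low at 4.13, 3.32 and 3.23 TPM, as was filaggrin (Flg) at 8.71, 8.5 and 10.9 TPM. Repetin (Rptn), which is known from filiform papillae, was at 353, 288 and 532 TPM, and trichohyalin (Tchh), of the inner root sheath and papillae, at 60.4, 46.5 and 104 TPM.

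The 13 small proline-rich genes all reached 1 TPM and summed to 21979, 20077 and 28381 TPM, 2.35% of all TPM. By the mean, Sprr1a made up more of this than all the other members together. In replicate 2 it did not, with 9808 TPM against 10269 TPM for the others. Sprr3, typical of the mouth and oesophagus, was at 2811, 3011 and 3792 TPM, and Sprr1b at 2205, 1318 and 2624 TPM. The near-identical Sprr2a1, Sprr2a2 and Sprr2a3 had means of 2481, 1399 and 899 TPM, a division that is uncertain. Of the 13, 9 were highest in replicate 3, against 18.1% of all genes, and 8 lowest in replicate 2, against 27.5%. The late cornified envelope genes split into groups. The 6 Lce3 genes, which are known from injured and inflamed epithelium, had the higher levels, with Lce3c at 921, 838 and 1342 TPM and Lce3b at 534, 662 and 1003 TPM, and none was variable. The Lce1 genes, of normal cornified epithelium, were lower and uneven, with Lce1d at 51.8, 103 and 158 TPM and Lce1f at 21.2, 75.4 and 108 TPM. In the whole family 13 of 20 genes were variable, against 2.63% of all genes. All 13 were highest in replicate 3 and lowest in replicate 1, a pattern of 10.2% of all genes. Without replicate 1, 1 of the 20 was variable.

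Enzymes that join and trim the envelope followed it. Asprv1, the protease that processes filaggrin, was at 760.0, 952 and 1156 TPM. Tgm3, a transglutaminase of the mouth and hair follicle, was at 239, 179 and 356 TPM, above Tgm1 at 134, 115 and 140.5 TPM. Of the 13 barrier enzymes with a mean of at least 1 TPM, 12 were highest in replicate 3, against 18.1% of all genes. The kallikreins, secreted proteases that loosen surface cells, were led by Klk8 at 670.3, 595 and 798 TPM and Klk10 at 397, 338 and 583 TPM. Spink5, their inhibitor, was at 146, 133 and 168 TPM. Of the 11 kallikrein and inhibitor genes 10 were highest in replicate 3 and 1 was variable, against 18.1% and 2.63% of all genes. Klk5, which starts the cascade in skin, was at 0.56, 2.77 and 3.89 TPM.

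The basal attachment genes had their highest values in replicate 1 and not in replicate 3. All 12 listed hemidesmosome and basal layer genes reached 1 TPM, and all 12 were highest in replicate 1, with and without trimmed-mean scaling, against 53.1% and 37.3% of all genes. Col17a1, the collagen of the hemidesmosome, was at 226, 139 and 151 TPM. Itgb4 and Itga6, its integrin pair, were at 115, 69.6 and 70.97 TPM and at 91.5, 48.7 and 49.1 TPM. Lama3, a chain of laminin 332, was at 48.1, 23.3 and 22.6 TPM and was the list's only variable gene. Replicate 1 was therefore apart in these genes, while replicates 2 and 3 differed little, with sums of 1288, 808 and 789 TPM. Muscle genes were also highest in replicate 1, as given above, and their part in this difference was not tested.

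Fate genes of keratinocytes hardly varied. The 17 listed transcription factors all reached 1 TPM, and their sum was 1597, 1524 and 1602 TPM, a coefficient of variation of 2.79%. None was variable, near the 2.63% over all genes. Elf3, an epithelial ETS factor, was at 298, 284 and 304 TPM, and Pitx1, a homeobox factor of the mouth and hind limb, at 264, 277 and 269 TPM. Klf4, which drives differentiation, was at 198, 164 and 199.6 TPM. Sox2, a factor of tongue and oesophageal progenitors and of squamous carcinoma, was at 29.2, 30.4 and 29.1 TPM. Gata3 was low at 2.51, 2.74 and 2.51 TPM. The 12 desmosome genes, which fasten keratinocytes to each other, had no variable member either, with sums of 3992, 3619 and 4113 TPM. Perp led at 1519, 1386 and 1674 TPM. Dsg3, the desmoglein of mouth and basal layers, was at 267, 194 and 241 TPM, above Dsg1a at 22.7, 26.8 and 36.9 TPM. Among junction genes Epcam was at 181, 158 and 154 TPM and Cdh1, E-cadherin, at 162, 144 and 128 TPM.

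Proliferation genes were expressed at moderate levels. All 21 reached 1 TPM and none was variable, near the 2.63% over all genes. Mki67 was at 47.1, 45.3 and 41.5 TPM, Top2a, a topoisomerase of dividing cells, at 96.00, 86.1 and 72.7 TPM, and Pcna, the replication clamp, at 295, 271 and 243 TPM. Each of the 21 was lowest in replicate 3, where 50.7% of all genes were lowest. After trimmed-mean scaling 19 were so, against 32.3% of all genes. The sums were 1435, 1379 and 1204 TPM, the highest being 1.19 times the lowest, against 1.29 times for the envelope precursors. Among genes of the cell cycle and of squamous cancer, Cdkn1a, a kinase inhibitor, was at 252, 229 and 252 TPM, Ccnd1, cyclin D1, at 208, 156 and 142 TPM, and Cdkn2a, the locus of p16 and p19Arf, at 71.8, 90.2 and 76.4 TPM. Trp53 was at 122, 118 and 110.0 TPM and Notch1 at 24.99, 25.04 and 23.5 TPM. None of the 18 was variable, near the 2.63% over all genes.

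Growth-factor and immediate early genes were highest in replicate 1. Among ligands of the epidermal growth factor receptor, Hbegf was at 109, 68.8 and 88.1 TPM, Areg at 95.2, 30.3 and 48.9 TPM and Epgn at 22.6, 7.68 and 12.6 TPM. Areg, Epgn and Nrg1 were the variable members, while the receptors Egfr, Erbb2 and Erbb3 had means of 33.03, 28.8 and 24.05 TPM and were even. All 18 immediate early genes were highest in replicate 1 as deposited, against 53.1% of all genes, and 16 after trimmed-mean scaling, against 37.3%. Junb was at 320.2, 304 and 276 TPM. Fosl1, an AP-1 subunit of invasive epithelium, was at 57.7, 15.1 and 23.7 TPM, and Egr1 at 107, 49.1 and 53.9 TPM. Fos, Fosb, Fosl1 and Egr1 were variable. Contractile muscle genes had their highest sum in the same library, and their part in these values was not tested.

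Invasion genes were present at low to moderate levels. Vim, vimentin of mesenchymal cells and leukocytes, was at 214, 196 and 161 TPM. Tnc, tenascin C, was at 83.2, 44.5 and 38.6 TPM, and Mmp13, collagenase 3, at 79.3, 101 and 61.6 TPM. Mmp3, stromelysin 1, was at 108, 111 and 37.8 TPM, lower in replicate 3 than in the others. The transition factors Snai1, Zeb1 and Zeb2 had means of 2.45, 2.41 and 2.00 TPM, against 40.7 TPM for Snai2, which basal keratinocytes also make. Of 22 listed genes with a mean of at least 1 TPM, 5 were variable, against 2.63% of all such genes. The prolactin-like genes Prl2c2 and Prl2c3, known as proliferins from growing cultured cells, were at 57.04, 31.9 and 11.2 TPM and at 44.9, 16.2 and 9.72 TPM. They are near copies of each other.

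Housekeeping groups took a large share of the messages. The 84 ribosomal protein genes held 24.1% of all TPM, and none was variable, against 2.63% of all genes. Their sums were highest in replicate 2, where 57 of the 83 expressed members had their highest value, against 28.8% of all genes. Nuclear subunits of oxidative phosphorylation held 3.24%, led by Ndufa4 at 4036, 3805 and 3871 TPM. Glycolysis and hypoxia genes held 1.55%. Each of the 21 was lowest in replicate 3 as deposited, where 50.7% of all genes were lowest. After trimmed-mean scaling 16 were so, against 32.3% of all genes. Gapdh was at 6188, 5942 and 5774 TPM and Ldha at 1864, 1762 and 1686 TPM. Slc2a1, the glucose transporter GLUT1, was at 180.4, 108 and 107 TPM, and Car9, a hypoxia marker, at 1.4, 1.13 and 0.96 TPM. Among targets of NRF2, the factor of the oxidative stress response, Gsta4 was at 1329.5, 1181 and 1428 TPM and Gpx2 at 175, 214 and 356 TPM. Aldh3a1, which detoxifies aldehydes in surface epithelium, was at 67.1, 146 and 239.8 TPM and was variable.

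Stromal messages were low beside the epithelial ones. The 10 fibrillar collagen genes summed to 287, 227 and 196 TPM, 0.0237% of all TPM. Col1a1 was at 87.7, 65.5 and 54.4 TPM, Col3a1 at 80.4, 66.9 and 58.3 TPM and Col1a2 at 76.8, 62.2 and 57.3 TPM. All 6 expressed members were highest in replicate 1 and lowest in replicate 3, a pattern of 33.5% of all genes as deposited. The same held for all 6 after trimmed-mean scaling, and none was variable, near the 2.63% over all genes. Muscle genes too were highest in replicate 1, and their part was not tested. Dcn, decorin of fibroblasts, was at 127, 106 and 86.4 TPM, and Postn, periostin, at 121, 83.7 and 94.1 TPM. Acta2, actin of smooth muscle and of activated fibroblasts, was at 52.2, 31.6 and 17.9 TPM. Tagln and Myl9, of the same contractile cells, had means of 12.7 and 10.4 TPM. The fibroblast list of 26 genes summed to 1416, 1358 and 1095 TPM, highest in replicate 1 as deposited and in replicate 2 after trimmed-mean scaling.

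Vessel genes were lower again. Blood endothelial genes summed to 147, 120.2 and 79.2 TPM. All 16 expressed members were lowest in replicate 3, against 50.7% of all genes, and 15 were so after trimmed-mean scaling, against 32.3%. Plvap, of fenestrated vessels, was at 29.4, 23.2 and 14.9 TPM, Pecam1 at 20.7, 16.7 and 10.8 TPM and Cdh5, VE-cadherin, at 9.23, 5.53 and 3.9 TPM. Lymphatic vessel genes were near the floor, with Lyve1 at 3.17, 1.86 and 2.01 TPM and Flt4 at 1.22, 1.04 and 0.72 TPM. Pdpn, at 80.7, 66.3 and 47.1 TPM, is also made by basal keratinocytes. Ccl21a, the chemokine of lymphatic endothelium and lymph node stroma, was listed at 41.4, 46.8 and 37.3 TPM, and its copies cannot be told apart with certainty.

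**Figure D3:**
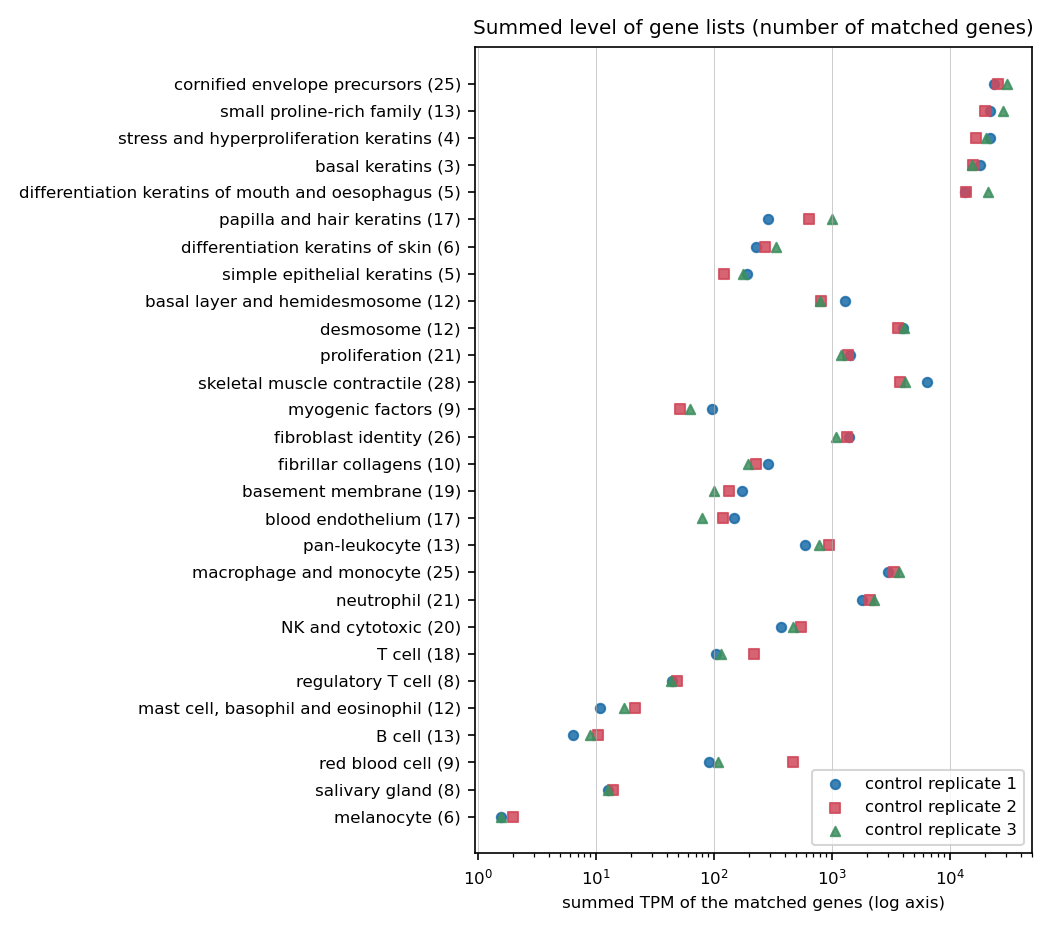
Summed TPM of the matched genes of 28 gene lists, on a log axis, 1 symbol per control library, with the number of matched genes in parentheses. Envelope precursors and basal, stress and mouth keratins lie at the top, contractile muscle and macrophage genes next, T cell genes between 103 and 221 TPM, and B cell and melanocyte genes at 10.4 TPM or below.

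Leukocyte messages were lowest in replicate 1. All 13 pan-leukocyte genes were lowest there, against 21.8% of all genes, and 12 were highest in replicate 2, against 28.8%. After trimmed-mean scaling the counts were 13 and 11. Cd52 was at 275, 444 and 385 TPM, Coro1a at 36.7, 70.6 and 49.5 TPM and Ptprc, the leukocyte antigen CD45, at 11.5, 16.5 and 13.5 TPM. The list summed to 599, 958 and 787 TPM.

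T cell genes were mostly highest in replicate 2, and cytotoxic genes went both ways. Of 17 T cell genes with a mean of at least 1 TPM, 15 were highest there, against 28.8% of all genes, and 7 were variable, against 2.63%. Cd3e, which T cells need to pass on the antigen signal, was at 3.48, 7.75 and 3.03 TPM, and Cd3g at 15.6, 38.9 and 17.4 TPM. Cd8a, of killer T cells, was at 4.82, 18.4 and 5.2 TPM, and Cd8b1 at 10.4, 34.1 and 10.3 TPM. Cd4, of helper T cells and some macrophages, was at 3.36, 3.9 and 5.12 TPM, so the ratio of Cd8a to Cd4 was 1.44, 4.72 and 1.02. Granzymes A and B followed Cd8a: Gzma was at 44.9, 144 and 52.9 TPM and Gzmb at 35.7, 96.5 and 42.7 TPM. Prf1, perforin, was at 2.35, 6.16 and 3.36 TPM, and Ifng, interferon gamma, at 3.37, 8.47 and 4.46 TPM. Of 18 cytotoxic genes with a mean of at least 1 TPM, 10 were highest in replicate 2, against 28.8% of all genes, and 7 were lowest there, against 27.5%. Of the same 18, 10 were variable, against 2.63%. Between replicates 1 and 3, without replicate 2, none of the 17 T cell genes and none of the 18 cytotoxic genes differed by as much as 1. Ccl5, a chemokine of T cells and other leukocytes, was among the 7 lowest in replicate 2, at 190.5, 145 and 246 TPM, and so were Gzmc at 23.1, 23.03 and 38.8 TPM and Gzmf at 10.8, 4.72 and 10.2 TPM. Regulatory T cell genes had similar sums, at 43.96, 49.2 and 43.6 TPM. None of 7 was variable, near the 2.63% over all genes.

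The same library held the most haemoglobin. Hba-a1 was at 28.7, 153 and 37.3 TPM, Hba-a2 at 16.3, 119 and 20.2 TPM, Hbb-bs at 23.4, 163 and 26.8 TPM and Hbb-bt at 1.37, 15.6 and 2.24 TPM. Replicate 2 was apart from the other pair in all 4, and without it none was variable. Alas2, the haem enzyme of red cell precursors, was at 0.18, 0.95 and 0.21 TPM, and Slc4a1, the anion exchanger of red cells, was listed at 0 in all 3. The red cell list of 9 genes summed to 90.8, 473 and 109 TPM. A part of blood in the T cell and cytotoxic values of replicate 2 was not tested. Hba-a1 and Hba-a2 are near copies.

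B cell genes were near the floor. Of 13 listed genes 1 reached 1 TPM in all 3 libraries, Cd72, at 4.05, 7.07 and 6.95 TPM, and Ms4a1, which encodes CD20, was listed at 0 in all 3. Cd22 was at 0.55, 0.6 and 0.45 TPM. Jchain, the joining chain of plasma cell antibodies, was at 0.08, 0.73 and 0.15 TPM. The plasma cell list owed its level to Sdc1, at 300.1, 254 and 234 TPM, and to Xbp1, genes that keratinocytes also express. Mast cell genes were low, with Mcpt4 at 2.74, 6.16 and 5.07 TPM and Cpa3 at 0.76, 1.8 and 1.25 TPM.

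Macrophage genes had the highest sum of the leukocyte lists and varied less than T cell genes. Macrophage and monocyte genes summed to 3029.8, 3387 and 3739 TPM, and none of 23 was variable, near the 2.63% over all genes. Arg1, arginase 1, led at 886, 1088 and 1565 TPM, highest in replicate 3, whereas Nos2, which uses the same substrate, was at 12.99, 12.7 and 10.8 TPM. Keratinocytes can make Arg1 as well, so its source cannot be told from bulk tissue. C1qa, a complement gene of macrophages, was at 193, 221 and 223 TPM, Csf1r, the receptor for their growth factor, at 27.96, 24.9 and 33.3 TPM and Adgre1, which encodes F4/80, at 3.43, 4.82 and 3.85 TPM. Among neutrophil genes, S100a8 at 704, 815 and 963 TPM and S100a9 at 644, 646 and 767 TPM are shared with keratinocytes. The more restricted Csf3r was at 11.3, 20.3 and 24.8 TPM, Cxcr2 at 2.55, 3.34 and 4.26 TPM, and Ly6g at 0.36, 0.68 and 0.11 TPM. Dendritic cell genes were low apart from Fscn1, at 94.7, 65.2 and 62.5 TPM, a gene other cells also express, with Itgax at 16.7, 16.3 and 20.2 TPM.

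Antigen presentation and interferon genes were high. The coefficient of variation of the sum was 2.68% for class I, 9.27% for class II and 13.5% for the interferon response. Of the 18 MHC class I and loading genes all reached 1 TPM and none was variable, near the 2.63% over all genes. H2-K1 was at 3913, 4020.3 and 3873 TPM and Tap1, the peptide transporter, at 314, 391 and 307 TPM. In class II, Cd74, the invariant chain, was at 1122, 1299.7 and 1209 TPM and H2-Aa at 632, 755 and 779.9 TPM. None of 25 interferon response genes was variable, near the 2.63% over all genes. Of these 25, 19 were highest in replicate 2, against 28.8% of all genes, and 18 lowest in replicate 1, against 21.8%. Their sum was 3395, 4347 and 3559 TPM. Gbp2 was at 906, 975 and 844 TPM and Isg15 at 261, 415 and 371 TPM. Among chemokines, Ppbp, the platelet basic protein, was listed at 743, 824 and 929.6 TPM, and Pf4, another platelet chemokine, at 18.4, 30.2 and 10.3 TPM. Of the 10 platelet list genes, 4 reached 1 TPM in all 3 libraries, against 67.4% of all listed genes. Without Ppbp that list summed to 34.05, 47.55 and 30.16 TPM. The platelet receptor genes Gp9 and Gp6 were at or below 0.01 TPM. Cxcl10, which draws T cells, was at 328, 490.1 and 302 TPM and Cxcl9 at 203, 242 and 196 TPM. Ccl2 and Cxcl1, which draw monocytes and neutrophils, were highest in replicate 1, at 246, 172 and 116 TPM and at 142, 82.6 and 57.8 TPM. Of 36 chemokine genes with a mean of at least 1 TPM, 9 were variable, against 2.63% of all genes. Cd274, which encodes the checkpoint ligand PD-L1, was at 91.02, 101 and 100.1 TPM, and its receptor Pdcd1 at 2.53, 5.82 and 2.83 TPM. Ltbr, the lymphotoxin beta receptor, was at 95.3, 86.6 and 82.98 TPM, and Tnfrsf14, the other receptor of LIGHT, at 7.49, 8.93 and 7.48 TPM.

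Epithelial defence genes were abundant. Slpi, a protease inhibitor of mucosal fluids, was at 1881, 1454 and 2269 TPM. The beta-defensins were led by Defb4 at 521, 695 and 1217 TPM, highest in replicate 3, with Defb3 at 479, 569.5 and 574 TPM and Defb14 at 504, 352 and 437 TPM. Ly6a and Ly6d, surface proteins of epithelium and other cells, had means of 3405 ± 69.3 and 3058 ± 266 TPM. Lgals7, a galectin of stratified epithelium, was at 1597, 1850.3 and 1859.6 TPM.

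Skeletal muscle was present in every library and highest in replicate 1. The 28 contractile genes summed to 6471, 3831 and 4181 TPM, 0.483% of all TPM. Acta1, skeletal actin, was at 1672, 952 and 1032 TPM, Mylpf, a fast light chain, at 789.9, 389 and 492 TPM and Tnnt3, fast troponin T, at 795, 458 and 518 TPM. Of the 23 expressed members, 6 were variable, against 2.63% of all genes. As deposited and after trimmed-mean scaling 22 were highest in replicate 1, against 53.1% and 37.3% of all genes. Myh4, the exception, was at 42.1, 40.2 and 47.7 TPM. Without replicate 1 none was variable. Muscle metabolism followed, with Ckm, muscle creatine kinase, at 215, 134 and 98.3 TPM, and so did the myogenic factors, with Myog at 25.5, 17.1 and 12.7 TPM and Myf6 at 38.9, 17.5 and 31.5 TPM. Pax7, of muscle stem cells, was at 0.09, 0.05 and 0.01 TPM.

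Other neighbouring tissues left little trace. Fabp4, of fat and capillaries, was at 94.5, 64.6 and 35.6 TPM, while Adipoq, the fat hormone, was at 0.08, 0 and 0 TPM. The salivary gland list owed its 13.1 TPM to Amy1, at 10.3, 12.2 and 10.2 TPM, and Pip and Bpifa2 were listed at 0 in all 3. The taste bud and papilla list of 8 genes summed to 12.5, 11.8 and 11.3 TPM, and 2 of the 8 reached 1 TPM in all 3 libraries. Its leading member, Entpd2, made up 42.3% of the mean sum, while the taste genes Trpm5 and Pkd2l1 were at or below 0.04 TPM. Sox10, a Schwann cell and melanocyte factor, was at 0.28, 0.46 and 0.31 TPM. Melanocyte genes summed to 1.56, 1.97 and 1.58 TPM.

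**Figure D4:**
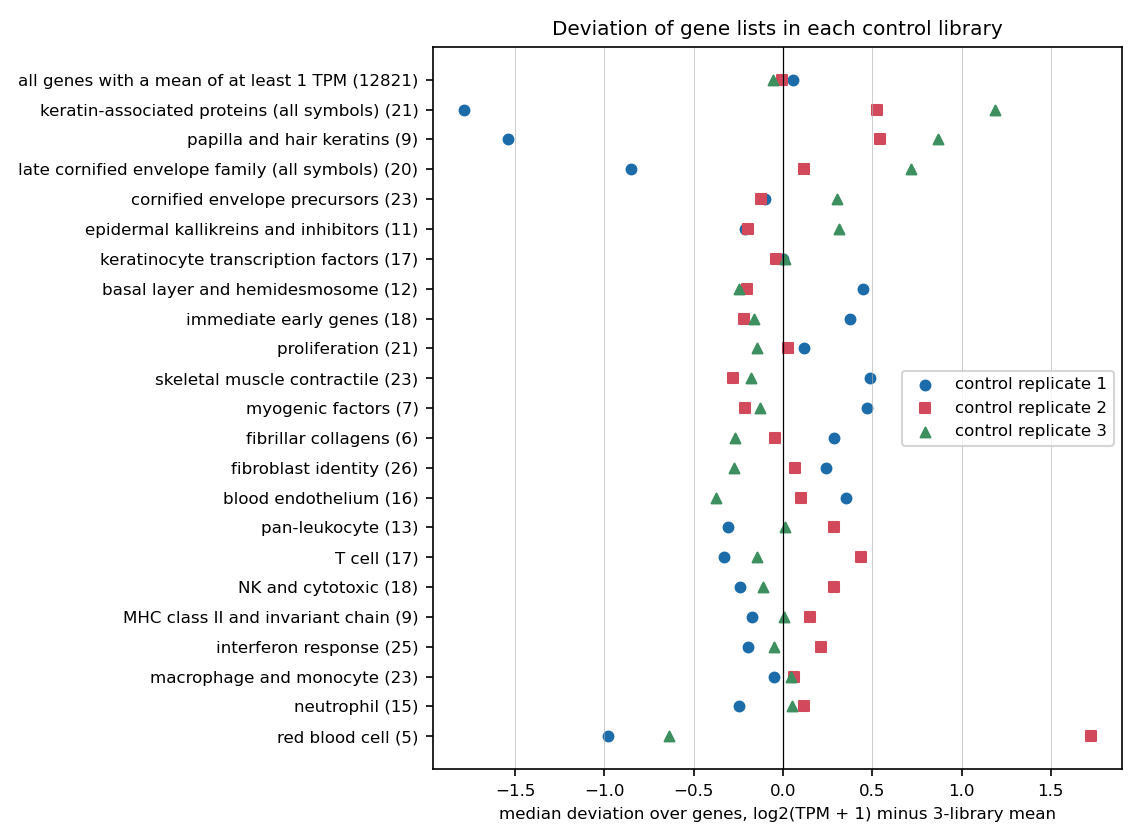
For each gene list, the median over its genes with a mean of at least 1 TPM (number in parentheses) of log2(TPM + 1) in 1 control library minus the gene's mean over the 3 libraries. For all genes the median is 0.06 in replicate 1 and -0.06 in replicate 3, while keratin-associated proteins lie at -1.78 in replicate 1 and 1.19 in replicate 3, and red blood cell genes at 1.72 in replicate 2.

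The variable genes had every order of the 3 libraries, in unequal numbers. Of the 337, 113 were highest in replicate 1, 71 in replicate 2 and 153 in replicate 3, and 185 were lowest in replicate 1. The most frequent pattern, highest in replicate 3 and lowest in replicate 1, held for 133 of them (39.5%) but for 10.2% of all genes with a mean of at least 1 TPM. It included 20 keratin-associated protein genes, 13 keratins and 13 late cornified envelope genes. Replicate 1 decided most of the count. Without it 76 genes were variable, against 188 without replicate 3 and 230 without replicate 2. The genes highest in replicate 1 included Il6, a cytokine, at 12.2, 7.62 and 1.9 TPM, and Serpina3n, an acute-phase protease inhibitor, at 169, 36.6 and 84.9 TPM. Those in replicate 2 included Retnla, a product of alternatively activated macrophages, at 0.29, 17.9 and 2.78 TPM. These 3 genes were chosen after their values were seen.

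**Figure D5:**
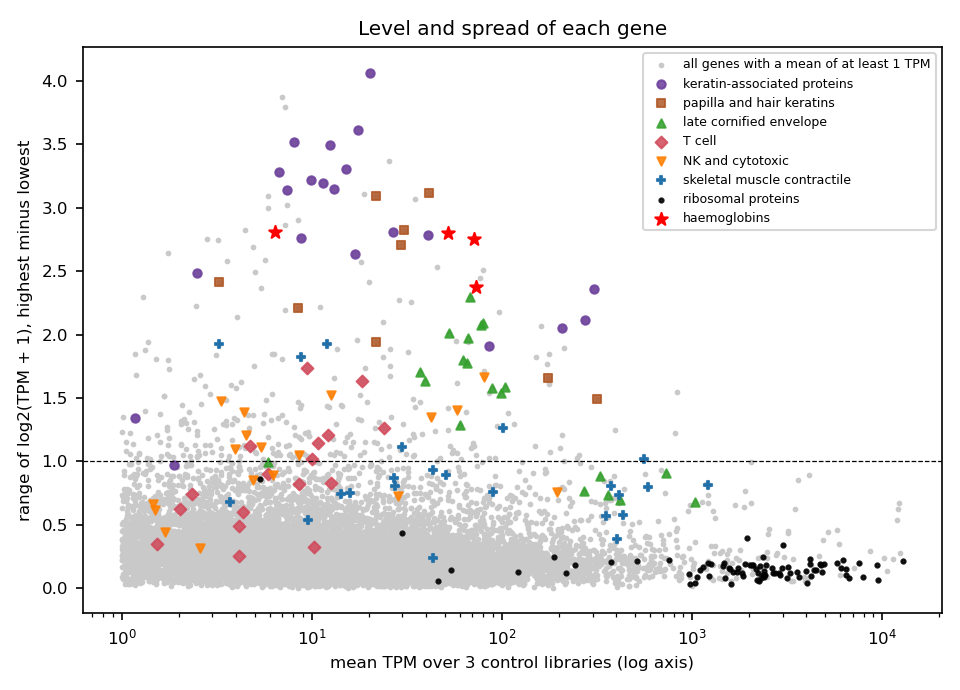
Mean level in TPM (log axis) against the range of log2(TPM + 1) between the highest and the lowest control library, 1 point per gene with a mean of at least 1 TPM, with 8 gene groups in colour and a dashed line at the range of 1. Most keratin-associated proteins and hair keratins and all 4 haemoglobins lie above 2, and ribosomal proteins below 1.

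Some genes hardly differed between the libraries. Among genes with a mean of at least 100 TPM, Mrpl30, a mitochondrial ribosomal protein, had the smallest range, at 185, 185 and 185 TPM. Among the 10 with the smallest range were also Mknk2, a signalling kinase, Grn, which encodes progranulin, and Emp2, an epithelial membrane protein, at 108, 108 and 108 TPM, at 147, 147 and 146 TPM and at 176, 175 and 173 TPM. Arf1, a vesicle-coat GTPase, was at 401, 404 and 404 TPM, Atp5l, a subunit of ATP synthase, at 1007, 1004 and 997 TPM and Gpx1, a glutathione peroxidase, at 465, 466 and 461 TPM. Gpx1 was at most 1.01 times as high in 1 library as in another. Gapdh, often used as a reference gene, ranged from 5774 to 6188 TPM.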

How the data were processed

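Bulk RNA from 3 control 4MOSC1 tongue tumour libraries was analysed, out of 6 libraries in the series. Libraries were grouped by the labels, and all 3 are replicates of 1 group. Per the labels' protocols, ribosomal RNA was removed with RNase H or Ribo-Zero. HISAT, Bowtie2 and the build GRCm38.p6 are named, with no role or version, per the submitters' processing notes. Which quantifier and gene models produced the table is not given in the sources used here. Values deposited by the authors are TPM per gene, written to 2 decimals, so the smallest values are coarse and the depth is unknown. No library pair held identical values.

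From these TPM values, sums per gene list, means, SDs and the range of log2(TPM + 1) over the 3 libraries were computed with pandas 2.3.3 and numpy 2.4.6 in Python 3.11.15. A gene was called variable when its mean was at least 1 TPM and its range at least 1. One group allows no test, so no p-values are given. Counts for a list refer to its members with a mean of at least 1 TPM and are read against the share over all such genes, given with the first results and repeated beside some counts. The range and scaling steps were tested on simulated data. Alternatives were other thresholds, pseudocounts and filters, quantile normalization, trimmed-mean scaling (trimming 30% of log ratios and 5% of levels at both ends), ribosomal protein genes left out, and each library left out. A planned removal of mitochondrially encoded genes changed nothing, as the table lists none under that name. Of the symbols, 18361 matched RefSeq (GRCm38.p6), the source of positions and promoters. Overlapping genes and near copies are uncertain, since the counting of shared reads is not stated.

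Named genes were the 30 most abundant, up to 6 leading members and the defining markers of each of 67 lists, the 12 with the largest range (mean of at least 10 TPM), the 10 with the smallest (at least 100 TPM) and Tnfsf14. Other list members named were chosen after their values were seen. The group and the lists were chosen with earlier results of these data known, and 4 lists were added after their values were seen. Figures were drawn with matplotlib 3.10.9.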

Additional observations from a re-analysis of the deposited data

How the results depend on the processing

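Mean list sums rest on 3 libraries each. Without replicate 2 the mean sum of the red blood cell list was 99.8 TPM in place of 224, without replicate 3 that of the keratin-associated proteins was 698 in place of 1093, and without replicate 1 that of the prolactin-like genes was 46.1 in place of 73.1. Among other lists, trimmed-mean scaling moved the highest library from replicate 1 to replicate 3 for the stress keratins and from replicate 1 to replicate 2 for the proliferation and fibroblast lists. A threshold of 10 TPM in all 3 libraries left 7272 genes in place of 12418. With ribosomal protein genes left out, the 10, 100 and 1000 most abundant genes held 13.5%, 38.0% and 67.9% of TPM. The number of variable genes, 337, was 585 with a pseudocount of 0.1, 224 with a mean of at least 5 TPM, 1304 with a range of at least 0.58 and 66 with a range of at least 2. Leaving out 1 library gave 76 to 230, with 76 without replicate 1 and 188 without replicate 3. The median Pearson's r between libraries, 0.986, became 0.981 with a pseudocount of 0.1 and 0.993 with no filter on low values. No paired analysis was possible because only 1 group was analysed. The depth is unknown, so no limit from depth can be given, and values of a few hundredths of a TPM are set by the 2 decimals.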

Other observations

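A few abundant genes lay outside the groups described above. Olfr1033, annotated as an olfactory receptor, was listed at 90.8, 69.6 and 60.2 TPM, although 6 of 147 listed olfactory and vomeronasal receptor genes reached 1 TPM in all 3 libraries and the next, Olfr1383, was at 2.4, 2.8 and 1.83 TPM. Heat shock genes were highest in replicate 1 for 11 of 12 members (9 after trimmed-mean scaling), against 53.1% and 37.3% of all genes. Hspa8, the constitutive chaperone, was at 1780.2, 1471 and 1448 TPM and Hsp90aa1 at 452, 309 and 292 TPM. Of 22 replication-dependent histone genes with a mean of at least 1 TPM, 8 were variable, against 2.63% of all such genes. H2bc4, the most abundant, was at 132, 120.1 and 143 TPM. The Y-linked genes Uty and Eif2s3y were at 0.06, 0.11 and 0.08 TPM and at 0 in all 3 libraries.

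Secreted and signalling genes among the variable genes were highest in different libraries. Nppb, a natriuretic peptide, was at 308, 103 and 72.7 TPM, and Il24, a cytokine of the interleukin 10 family, at 179, 72.5 and 94.1 TPM, both highest in replicate 1. Ptgs2, the inducible cyclooxygenase, was at 31.9, 12.6 and 7.48 TPM. Csf3, the granulocyte growth factor, was at 7.55, 8.68 and 2.36 TPM, and Chil3, a chitinase-like protein of macrophages, at 27.8, 4.4 and 27.7 TPM, lowest in replicate 2. These genes were chosen after their values were seen.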
